A study of Arabidopsis thaliana with 6 samples.

Results

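The B-type cyclins and the CDKB kinases were examined in quiescent centre (QC) cells, the rarely dividing cells at the middle of the root stem cell niche. The genes were chosen by name, as 6 B cyclins (4 of class B1 and 2 of class B2) and 4 CDKB kinases (2 of class B1 and 2 of class B2). Each is given with its identifier and position where its values are described, and together they are 10 of the 37336 Araport11 genes listed for each library. All 10 passed the filter on low levels, which kept the 15739 genes whose mean over the libraries of WT or of the mutant was 4 CPM or more before TMM scaling (CPM is the count of a gene scaled to a fixed library size). The study asked which genes the MYB transcription factor BRAVO regulates in the QC, where it is known to restrain division. QC cells were isolated by fluorescence-activated sorting of protoplasts from roots of 5-day-old seedlings that carried the pWOX5:GFP reporter, and 3 libraries came from the wild type (WT) and 3 from the knockout mutant *bravo-2*, called *bravo* here. Both genotypes carried the reporter and none was treated. By the study's own description the WOX5 promoter is active mainly in the QC and to some degree in the vascular initials. The study also places WOX5, less strongly, in the columella stem cells, so the sort can hold all of these cells. The labels do not say whether the 3 libraries of a genotype came from separate plant batches, so p-values measure the spread between these libraries, which may be technical.

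B-type cyclins are the regulatory subunits that switch on cyclin-dependent kinases at the entry into mitosis, and they are destroyed by the anaphase-promoting complex before the cell exits from it. CDKB kinases are a plant-specific class of cyclin-dependent kinase whose transcripts, unlike those of the constitutive CDKA;1, are limited to the later part of the cycle, from S phase or G2 to mitosis. Their transcripts are therefore read as a sign of cells in G2 and mitosis, and in the root tip they are abundant in the dividing meristem and sparse in the QC. Many genes expressed at this time carry the mitosis-specific activator (MSA) element, whose core AACGG is bound by MYB3R transcription factors.

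The promoters of the B cyclins are shown because this core recurs in them. In the 250 bases before the annotated start of each gene (TAIR10.1, RefSeq), AACGG was searched on both strands, so that it reads CCGTT where it lies on the opposite strand. The runs below are given 5′ to 3′ on the strand of the gene, with the cores in capitals. In the order shown they lie at chr4:17624309-17624491 (minus strand), chr5:1861704-1861861 (minus), chr3:3627274-3627352 (minus), chr2:7663903-7664018 (plus), chr4:16901409-16901513 (plus) and chr1:7294816-7294850 (minus).
CYCB1;1: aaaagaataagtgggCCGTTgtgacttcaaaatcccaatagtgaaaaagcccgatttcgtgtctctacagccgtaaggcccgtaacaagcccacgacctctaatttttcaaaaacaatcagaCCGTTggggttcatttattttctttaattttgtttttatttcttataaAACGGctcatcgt
CYCB1;2: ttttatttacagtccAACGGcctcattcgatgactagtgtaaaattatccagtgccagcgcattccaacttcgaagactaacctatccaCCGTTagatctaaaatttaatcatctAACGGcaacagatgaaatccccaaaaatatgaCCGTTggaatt
CYCB1;3: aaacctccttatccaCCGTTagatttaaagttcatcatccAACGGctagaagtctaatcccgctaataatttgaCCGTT
CYCB2;1: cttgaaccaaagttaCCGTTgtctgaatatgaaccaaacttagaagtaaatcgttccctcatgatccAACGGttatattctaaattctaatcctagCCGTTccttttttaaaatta
CYCB2;2: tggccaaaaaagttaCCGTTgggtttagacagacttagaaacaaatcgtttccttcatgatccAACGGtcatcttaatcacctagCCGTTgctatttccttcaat
CDKB2;2: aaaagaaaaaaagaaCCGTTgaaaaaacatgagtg

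CYCB1;2 held 4 cores, the other B cyclins shown held 3 each and the kinase held 1. In every B cyclin shown but the first, the 3 cores nearest the start lay on the opposite, the gene and again the opposite strand. In CYCB1;3 these cores began 64, 39 and 5 bases before the start, and in CYCB1;2 they began 69, 43 and 11 bases before it. The cores of the B2 cyclins lay farther out, at 137, 85 and 56 bases before the start in the first and 172, 124 and 102 bases in the second. At least 1 core was found for 6 of the 10 genes (60.0%), and 5 of the 10 (50.0%) held at least 3. Over all 27443 protein-coding genes, 20.6% of windows of the same length held at least 1 core, 3.6% at least 2 and 0.74% at least 3. CYCB1;4 and the other 3 kinases had none of these letters in the window, which says nothing of sites elsewhere or of other forms of the element. The windows of 2 of these kinases reach into the neighbouring genes AT3G54170 and AT1G76550. A match in sequence is not a measured binding site.

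**Figure D1:**
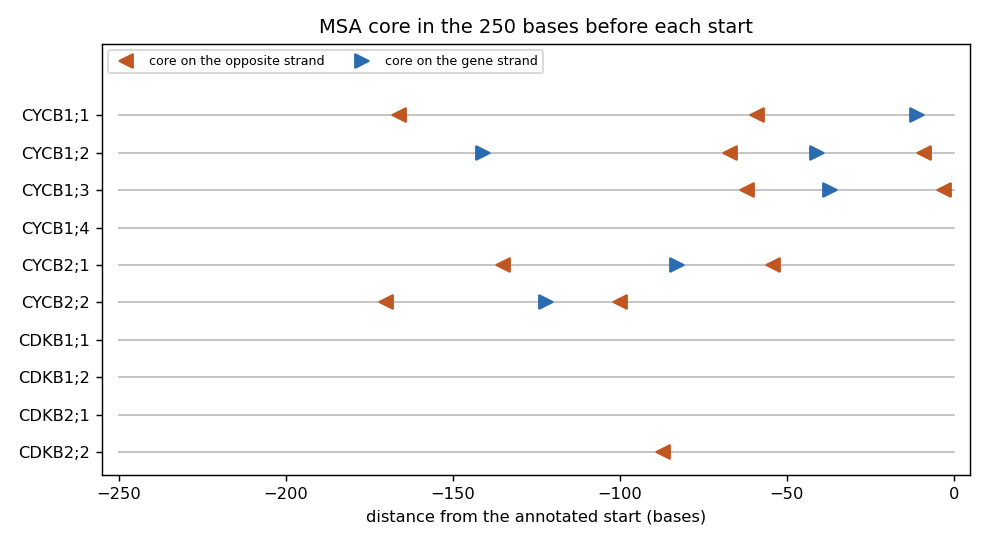
Position of the MSA core in the 250 bases before the annotated start of each gene. The x axis is the distance from the start in bases, each line is a gene, and arrowheads mark cores on the gene strand (blue) or the opposite strand (orange). Of the 6 B cyclins 5 hold 3 or 4 cores, and of the 4 kinases 1 holds any.

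Every library held between 10990217 and 14425249 estimated counts, and 3 counts, the smallest number taken as shown, were worth 0.208 to 0.273 CPM. Levels between libraries are given in CPM scaled by the TMM method, and levels between genes in TPM, which also takes account of transcript length. The targeted gene BRAVO had levels of 13.3, 37.5 and 60.5 CPM in WT replicates 1, 2 and 3, against 13.8, 10.3 and 11.8 CPM in *bravo* replicates 1, 2 and 3, so that WT replicate 1 lay within the range of the mutant libraries. Its log2 fold change of *bravo* over WT was -1.635 (SE 0.582, unadjusted p = 0.0244 by edgeR's quasi-likelihood test). The gene was not called after adjustment over all genes tested. WOX5, whose promoter drove the reporter, was detected in all 6 libraries, from 80.3 to 444 CPM. The libraries also held transcripts of other root cells, in amounts that differed between replicates. Summed over 4 genes of root hair cells, the level came to 2954, 1412 and 2262 CPM for the WT replicates and to 6.85, 857 and 2255 CPM for those of *bravo*, and summed over 3 genes of the endodermis it came to 150, 7.58 and 146 CPM for the WT replicates and to 8.07, 13.5 and 139 CPM for those of *bravo*. The endodermis sum was thus high in WT replicates 1 and 3 and *bravo* replicate 3 and low in the other 3 libraries. MYB36, an endodermis regulator, was the only tested gene of the marker and cell cycle lists whose genotypes did not overlap, at 6.48 to 15.4 CPM in WT and 4.47 to 6.40 CPM in *bravo*. Among list genes below the filter, the vascular genes TMO5 and AHP6 did not overlap either and were lower in *bravo*, the second near or below the floor in every library.

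All 10 genes were detected in every library. Per length, CYCB1;2 was the most abundant of them, with a mean of 42.8 TPM over the 6 libraries (5.76 to 81.4), and it lay above the kinase next in order in 6 of 6 libraries. The kinases CDKB1;1, CDKB2;1 and CDKB1;2 followed with 25.3, 18.6 and 17.6 TPM. The other B1 cyclins lay at 15.5, 11.2 and 11.1 TPM, the fourth kinase at 8.54 TPM and the B2 cyclins lowest, at 7.21 and 3.24 TPM. The ranges of all neighbours in this order overlapped over the 6 libraries. As genes share the libraries, the order was also read within each, and apart from the first neighbours, each gene lay above the next in 3 to 5 of the 6 libraries. The leading cyclin made up 36.2% to 53.3% of the summed TPM of the 6 B cyclins. The ratio of summed B cyclins to summed CDKB kinases was similar across libraries, at 1.56, 1.24 and 1.19 in WT and 1.41, 1.33 and 1.03 in *bravo*. The constitutive kinase CDKA;1 (AT3G48750) stayed between 27.9 and 54.8 TPM, and summed CDKB relative to it ran from 0.369 in *bravo* replicate 3 to 4.75 in WT replicate 3.

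The B1 cyclins are the best known markers of G2 and mitosis in Arabidopsis, and a reporter of the first of them, joined to its destruction box, is the usual stain for dividing root cells. CYCB1;1 (AT4G37490, chromosome 4, 17621886 to 17624308, 8 exons) had levels of 6.46, 15.2 and 18.0 CPM in WT replicates 1, 2 and 3, against 13.7, 12.6 and 0.471 CPM in *bravo* replicates 1, 2 and 3. The last value rests on 5 counts (exact 95% binomial interval 1.62 to 11.7, counting error only). The other libraries had 149 to 247 counts, apart from the 79 of WT replicate 1. *bravo* replicate 3 was 29.1-fold below *bravo* replicate 1, while the other mutant libraries lay inside the WT range.

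CYCB1;2 (AT5G06150, chromosome 5, 1859279 to 1861703, 4 or 5 exons) had WT levels of 26.6, 40.9 and 93.0 CPM and *bravo* levels of 70.3, 31.9 and 8.00 CPM. CYCB1;3 (AT3G11520, chromosome 3, 3625286 to 3627273, 4 or 5 exons) had WT levels of 5.97, 13.3 and 19.0 CPM and *bravo* levels of 10.6, 14.2 and 0.471 CPM, the last again from 5 counts. CYCB1;4 (AT2G26760, chromosome 2, 11401118 to 11403433, 5 exons) had WT levels of 15.4, 14.5 and 28.7 CPM and *bravo* levels of 25.3, 17.0 and 3.29 CPM. For these 3 genes too, WT replicate 3 was the highest and *bravo* replicate 3 the lowest of the 6 libraries, and the genotypes overlapped because *bravo* replicates 1 and 2 fell within the WT range. The last of them had the narrowest spread among WT libraries, with the highest 1.98-fold above the lowest.

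The B2 cyclins, which also act at the G2 to M transition, were the least abundant of the cyclins per length. CYCB2;2 (AT4G35620, chromosome 4, 16901596 to 16904001, 9 or 10 exons) had WT levels of 4.09, 5.89 and 16.0 CPM and *bravo* levels of 9.99, 7.50 and 0.942 CPM, again highest in WT replicate 3 and lowest in *bravo* replicate 3. CYCB2;1 (AT2G17620, chromosome 2, 7664055 to 7666522, 10 exons) had WT levels of 2.13, 0.758 and 5.25 CPM and *bravo* levels of 6.57, 3.03 and 1.79 CPM. It was the exception among the 10 genes, with its highest value in *bravo* replicate 1 and its lowest in WT replicate 2. These values rest on 9 to 92 counts, the lowest with an exact 95% binomial interval of 4.12 to 17.1 counts.

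The B1-type kinases act from S phase to mitosis, and the first of them is known for its part in the division of the stomatal lineage. CDKB1;1 (AT3G54180, chromosome 3, 20059671 to 20061488, 4 exons) had WT levels of 10.3, 15.8 and 44.8 CPM and *bravo* levels of 30.55, 20.3 and 4.05 CPM. CDKB1;2 (AT2G38620, chromosome 2, 16152473 to 16154086, 2 to 5 exons) had WT levels of 8.09, 15.3 and 24.2 CPM and *bravo* levels of 15.6, 11.0 and 4.24 CPM. Its highest *bravo* level was 3.67-fold above the lowest, a small spread among these genes.

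The B2-type kinases peak closer to mitosis and are needed for the organisation of the shoot meristem. CDKB2;1 (AT1G76540, chromosome 1, 28720328 to 28722550, 8 exons) had WT levels of 9.15, 18.4 and 31.7 CPM and *bravo* levels of 16.3, 15.3 and 1.60 CPM. CDKB2;2 (AT1G20930, chromosome 1, 7292389 to 7294746, 8 exons) had WT levels of 2.13, 6.65 and 16.55 CPM and *bravo* levels of 12.2, 3.62 and 0.942 CPM, the widest spread among WT libraries, at 7.79-fold. In both, WT replicate 3 was highest, *bravo* replicate 3 was lowest and the genotypes overlapped. CDKB1 relative to CDKB2 in TPM was 1.71, 1.31 and 1.49 in WT and 1.69, 1.72 and 3.47 in *bravo*, so that B2-type kinases were lower relative to B1-type in *bravo* replicate 3 than in the other libraries.

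All 4 kinase genes overlap a gene on the opposite strand at their 3′ end, by 44 to 281 bases, and whether the counting used the strand is not given in the sources used here. The partners of the B2-type kinases were hardly expressed, AT1G76530 with at most 0.19 CPM and AT1G20925 listed at 0 in every library. Those of the B1-type kinases were expressed, AT3G54190 at 83.8 to 197 CPM over an overlap of 71 bases and AT2G38630 at 7.91 to 31.8 CPM over 281 bases. RSEM gave fractional counts, the sign of reads shared with another gene, for 2 of the 10, CYCB1;2 and CDKB1;2, with a posterior standard deviation of at most 0.81 and 2.41 reads. AT2G38630, the opposite-strand partner of CDKB1;2, had the same highest value, 2.41 reads. Whether both values come from the same reads was not tested. No B cyclin of the set overlaps another annotated gene.

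**Figure D2:**
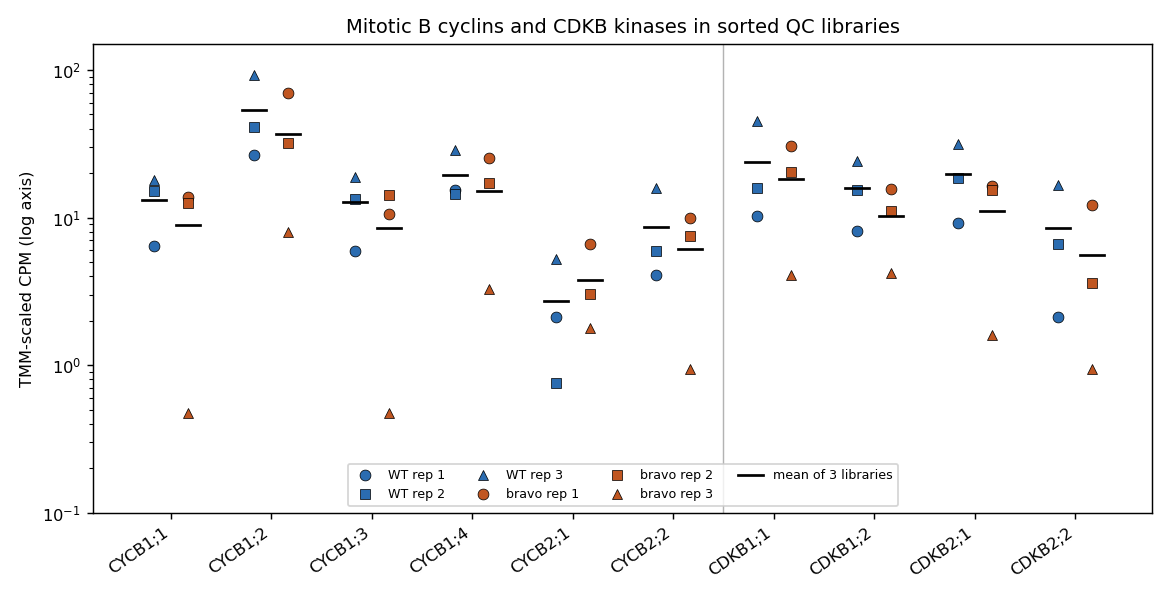
TMM-scaled CPM of the 6 B cyclins (left of the line) and 4 CDKB kinases (right) on a log axis. Points are libraries, WT in blue and *bravo* in orange with a marker for each replicate, and black bars are means of 3 libraries. WT replicate 3 is the highest point for 9 of the 10 genes and *bravo* replicate 3 the lowest for 9.

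The 10 genes varied together from library to library, across the genotypes. WT replicate 3 was the highest library for 9 genes and among the 2 highest for all 10. *bravo* replicate 3 was the lowest for 9 and among the 2 lowest for all 10, and WT replicate 1 was among the 2 lowest for 8. Over the 45 gene pairs, the median Pearson correlation of log2(CPM + 0.5) across the 6 libraries was 0.939 (0.311 to 0.993), and over the 36 pairs without CYCB2;1 it was 0.947 (0.813 to 0.993). These correlations are a description of 6 libraries, which the pairs share with their depth and cell makeup. The spread within a genotype was wider than for most genes. The median standard deviation of log2(CPM + 0.5) was 0.89 among WT and 1.55 among *bravo* libraries for these genes, against 0.53 and 0.83 over all genes tested. As the RNA is a bulk sample of sorted cells, fewer cells in G2 or mitosis and less RNA per such cell cannot be told apart.

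**Figure D3:**
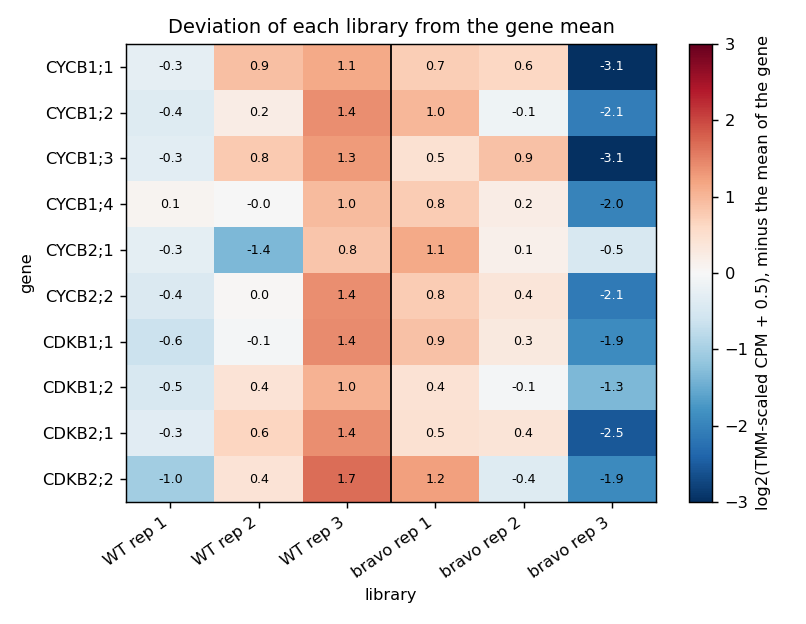
Deviation of each library from the mean of the gene, in log2(TMM-scaled CPM + 0.5), for the 10 genes (rows) and 6 libraries (columns), WT left of the line and *bravo* right of it. Red is above and blue below the mean of the gene. The column of WT replicate 3 is red and that of *bravo* replicate 3 blue for all 10 genes, while the fifth row departs from the rest in WT replicate 2.

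In the comparison of *bravo* with WT, none of the 10 genes differed beyond the spread between libraries. Each had an adjusted p of 1.00 (edgeR's quasi-likelihood test, Benjamini-Hochberg over the 15739 genes tested), in a fit where 0 genes (0%) were called and the lowest adjusted p was 0.326. DESeq2 on the same counts called 13 genes, none of them among the 10. At an unadjusted p under 0.05 the fit gave 125 genes (0.794%), none of them among the 10, whose unadjusted p ran from 0.356 to 0.666. The WT and *bravo* levels did not overlap for 579 genes (3.68%), and overlapped for all 10. A two-sided exact permutation test of the 6 libraries, whose smallest p is 0.10, gave 0.4 to 0.7.

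The estimates were below 0 for 9 genes and above 0 for CYCB2;1, with a median log2 fold change of -0.55 where the median of all genes was 0.04 and 45.7% lay below 0. CDKB2;1 had the lowest, a log2 fold change of -0.83 (SE 0.85), from a mean of 19.8 ± 11.3 CPM in WT to 11.1 ± 8.22 CPM in *bravo* (SD, n = 3 each). For CDKB1;2 it was -0.63 (SE 0.64), from 15.9 ± 8.07 to 10.3 ± 5.70 CPM. CYCB1;2 went from 53.5 ± 35.0 to 36.75 ± 31.4 CPM, a log2 fold change of -0.54 (SE 0.80), and CYCB1;1 from 13.2 ± 6.03 to 8.91 ± 7.33 CPM, a log2 fold change of -0.57 (SE 1.01). CYCB2;1 alone had the opposite sign, from 2.71 ± 2.30 to 3.80 ± 2.48 CPM, a log2 fold change of 0.48 (SE 0.90). This gene passed the filter only through *bravo*, with a mean before TMM scaling of 4.31 CPM there and 2.65 CPM in WT. It was not tested once *bravo* replicate 1 was left out, so its place among the tested genes depends on the filter. In the fit to every gene with a count, its log2 fold change was 0.49. The other 5 genes ran from -0.59 to -0.36.

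The 95% intervals of these estimates were wide, and they do not show that the genotypes were alike. The narrowest, that of CDKB1;2, spanned 0.232-fold to 1.82-fold of the WT level, and the widest, that of CDKB2;2, spanned 0.122-fold to 3.60-fold. Without WT replicate 3, 4 of the 10 estimates were below 0 and their median log2 fold change was 0.09, and without *bravo* replicate 3, 6 of the 10 were, with a median of -0.01, so the common direction of the estimates rests on these 2 libraries.

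**Figure D4:**
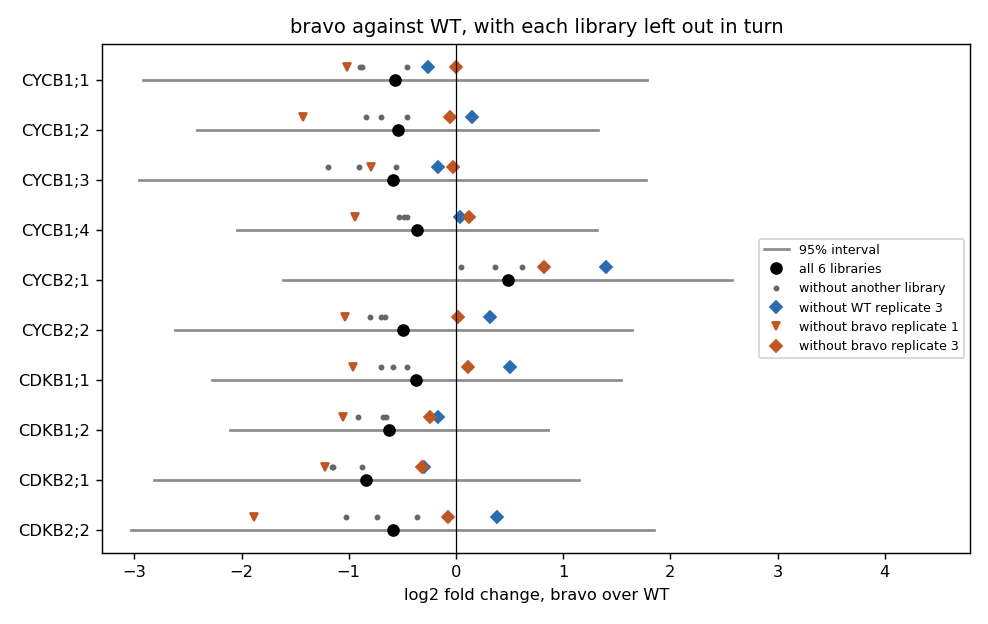
Log2 fold change of *bravo* over WT for each gene. Black points are fits to all 6 libraries, with grey lines for their 95% intervals, and the small markers above each are fits without 1 library. Every interval spans 0, and estimates without WT replicate 3 (blue diamonds) or *bravo* replicate 3 (orange diamonds) lie near or above 0 for most genes.

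Related gene lists showed where the pattern was shared. Among the other B cyclins, CYCB2;3 had WT levels of 9.81, 21.2 and 19.5 CPM and *bravo* levels of 17.7, 14.4 and 2.64 CPM, and CYCB2;4 had WT levels of 9.56, 20.5 and 33.8 CPM and *bravo* levels of 22.3, 14.1 and 2.92 CPM. A divergent B3 cyclin (AT1G16330) was highest in *bravo* replicate 1 at 35.97 CPM and lowest in WT replicate 1 at 5.64 CPM. Of 5 such genes 3 passed the filter, 2 with an estimate below 0 and 1 above it, and none was called. Of 15 genes of mitosis and cytokinesis (spindle checkpoint, Aurora kinases, phragmoplast kinesins, the syntaxin KNOLLE and others), 11 were below 0, 4 above it and none called, with a median log2 fold change of -0.19. Their summed level came to 151, 338 and 342 CPM for the WT replicates and to 450, 249 and 86.0 CPM for those of *bravo*, so that *bravo* replicate 3 was again lowest. Without that library 4 of the 15 were below 0 and 11 above it, with a median of 0.24.

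The A cyclins had 2 of 7 tested genes below 0 and 5 above it (median 0.28). Among the MYB3R factors and the GRAS gene AT1G63100 1 of 5 was below 0, and MYB3R1 had WT levels of 22.2, 27.2 and 22.9 CPM and *bravo* levels of 46.6, 32.9 and 27.1 CPM, a log2 fold change of 0.56 (SE 0.39, exact permutation p = 0.2). Of 15 genes of the anaphase-promoting complex and its regulators 7 were below 0 and 8 above it (median 0.12). Of the 5 tested kinase partners and regulators 3 were below 0 (median -0.26), with the constitutive kinase nearly level at a log2 fold change of 0.11 (SE 0.37). None of these genes was called, had an unadjusted p under 0.05 or had genotypes that did not overlap.

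Genes of S phase showed another order of libraries. The 12 genes (MCM2 to MCM7 of the replicative helicase, PCNA1, PCNA2, CDT1A, CDC6 and the ribonucleotide reductase genes RNR1 and TSO2) all had estimates above 0, from 0.03 to 1.00 with a median of 0.63, and none was called. The lowest 3 (CDC6, CDT1A and PCNA2) were no higher than the median of all genes, 0.04. Leaving out *bravo* replicate 1 brought the median of the S phase genes to 0.15, with 9 of 12 above 0. MCM2 had WT levels of 54.0, 137 and 110 CPM and *bravo* levels of 294, 169 and 60.3 CPM, and RNR1 had WT levels of 63.8, 176 and 122 CPM and *bravo* levels of 327, 187 and 61.6 CPM. Both were highest in *bravo* replicate 1, in contrast to the highest level of the B cyclins and CDKB kinases in WT replicate 3.

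Mitotic transcripts were therefore also expressed relative to S phase transcripts of the same library, a ratio that does not depend on how libraries are scaled. It was chosen after the values were seen, so no test is given. The summed level of the 10 genes over that of the S phase genes was 0.225, 0.168 and 0.458 in WT replicates 1, 2 and 3 and 0.135, 0.135 and 0.0652 in *bravo*, and the genotypes did not overlap. The gap was narrow, between WT replicate 2 and *bravo* replicates 1 and 2. Over the MCM genes alone the ratio was 0.444, 0.285 and 0.817 in WT and 0.204, 0.218 and 0.127 in *bravo*, and over the other S phase genes it was 0.454, 0.410 and 1.04 in WT and 0.399, 0.353 and 0.134 in *bravo*. The mitosis and cytokinesis genes over the same S phase sum gave 0.376, 0.387 and 0.527 in WT and 0.287, 0.246 and 0.217 in *bravo*. On that ratio the genotypes did not overlap. The 10 genes over the mitosis and cytokinesis genes gave 0.597, 0.434 and 0.869 in WT and 0.469, 0.549 and 0.3 in *bravo*. Without the S phase genes in the ratio, the genotypes thus overlapped.

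Gene by gene over the summed S phase level, 5 of the 10 genes were lower in all 3 *bravo* than in all 3 WT libraries, namely all B1 cyclins other than CYCB1;4 and the kinases CDKB1;2 and CDKB2;1, where 1342 genes (8.53%) of all tested were so. For 0 of the 10 was the ratio higher in all 3 *bravo* libraries, where 0.407% of genes were. Per 1000 CPM of S phase transcripts, the last of these had WT levels of 22.8, 21.1 and 48.9 CPM and *bravo* levels of 10.4, 15.2 and 4.05 CPM, and the first B1 cyclin had 16.1, 17.4 and 27.8 in WT and 8.75, 12.4 and 1.19 in *bravo*. On the same scale 2 of the B1 cyclins nearly touched between the genotypes, with 46.8 against 44.9 CPM for CYCB1;2 and 14.8 against 14.1 CPM for CYCB1;3 in the nearest libraries. The other 5 genes, both B2 cyclins among them, overlapped between the genotypes. Because the S phase genes had estimates above 0 in *bravo* and the mitotic genes below 0, the ratio holds both differences, neither of which passed the test across all genes.

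**Figure D5:**
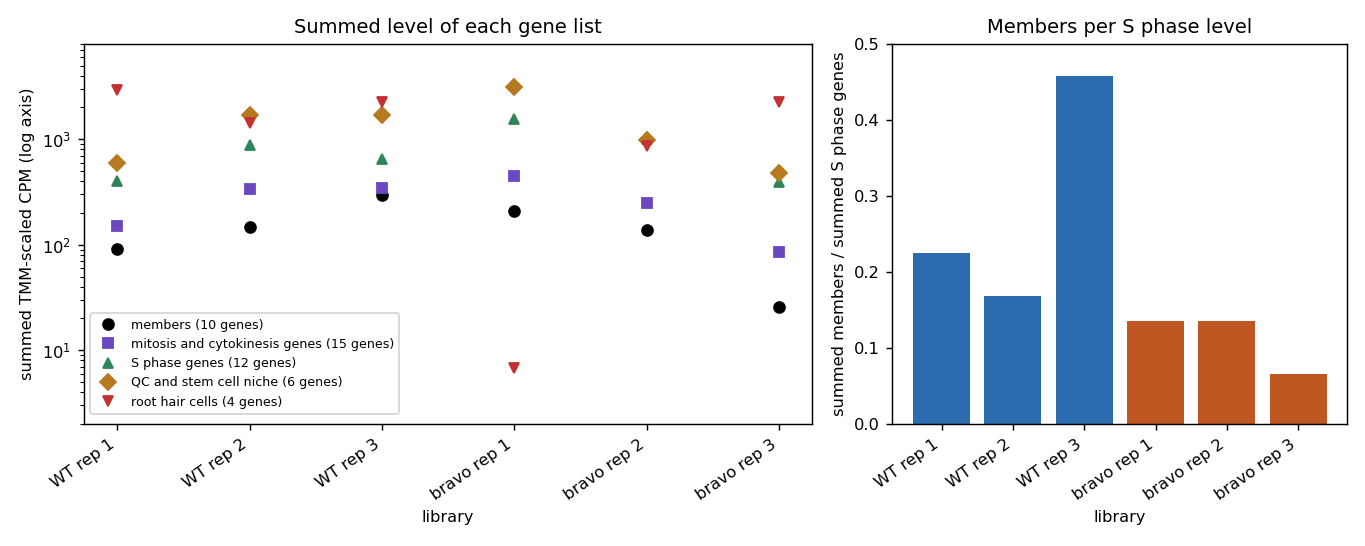
Left, summed TMM-scaled CPM of 5 gene lists in each library on a log axis, with members standing for the 10 B cyclins and CDKB kinases. Right, their summed level over that of the S phase genes as bars from 0, WT in blue and *bravo* in orange. The WT bars stand at 0.168 to 0.458 and the *bravo* bars at 0.0652 to 0.135.

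Markers of other cells moved along with parts of this pattern. *bravo* replicate 3 and WT replicate 1, the libraries lowest in B cyclins and CDKB kinases, had the lowest summed level of the 6 QC and niche genes (479 and 594 CPM, against 978 to 3100 CPM in the others) and root hair transcripts at 2255 and 2954 CPM. *bravo* replicate 1, with root hair transcripts at 6.85 CPM, had the highest QC sum and the highest S phase sum (1566 CPM), and was among the 2 highest libraries for 7 of the 10 genes. WT replicate 3, highest for 9 of the 10, had root hair transcripts at 2262 CPM and endodermis transcripts at 146 CPM, close to *bravo* replicate 3. Summed over 4 root cap genes the libraries ran from 63.5 to 158 CPM, over 2 genes of the non-hair epidermis from 4.78 to 69.6 CPM, and over 7 vascular genes, of which 3 passed the filter, from 73.3 to 421 CPM. Of the 4 defining root hair markers, RHD6 was below the floor of 3 counts in *bravo* replicate 1, and the rest were above it in every library. Relative to WOX5, the summed level of the 10 genes was 1.12, 0.563 and 0.799 in WT and 0.476, 1.14 and 0.267 in *bravo*, and the genotypes overlapped. The part of the cell makeup of each sort in these levels was not tested.

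By mean correlation with the 10 genes over the 6 libraries, the tested genes most like them were RHL1 (AT1G48380, 0.925), a subunit of the topoisomerase VI complex, AT1G16630 (0.922), the Elongator subunit gene ELP6 (AT4G10090, 0.920), AT5G40700 (0.919) and AT5G05550 (0.918). Of 15729 genes other than the 10, 36 exceeded 0.9. They included the B2 cyclin AT1G76310 at 0.910, the Aurora kinase AUR2 at 0.911 and the spindle factor TPX2 at 0.907, named here after their values were seen. The median was 0.86 for the other B cyclins, 0.842 for mitosis and cytokinesis, 0.726 for the QC genes, 0.707 for the A cyclins, 0.587 for S phase and -0.392 for root hair genes, against 0.072 for all genes. RHL1 had WT levels of 25.5, 27.6 and 37.3 CPM and *bravo* levels of 33.55, 28.4 and 16.2 CPM, with the same highest and lowest library over a smaller range.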

How the data were processed

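RNA was amplified with the SMART-Seq v4 kit. The authors trimmed reads with cutadapt, mapped them to TAIR10 with STAR and quantified Araport11 transcripts with RSEM; versions and strand setting are not given in the sources used here. The deposited tables hold, for each gene, RSEM's expected count, which need not be whole (82.1% to 83.8% of values above 0 were whole), and TPM, as RSEM writes them. The effective length and the posterior standard deviation of the count that the authors deposited beside them served only to describe the members. RSEM splits reads that match several genes, which leaves overlapping or similar genes uncertain. Intervals and floors cover counting error only, as copies made by amplification are not separate molecules.

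The estimated counts were rounded. Genes whose mean reached 4 CPM in either genotype (15739 of 37336) were scaled with TMM. They were compared by edgeR's quasi-likelihood test on all 6 libraries, with genotype as the only term and Benjamini-Hochberg adjustment (threshold 0.05). Log2 fold changes are *bravo* over WT. The edgeR fit was tested on simulated data with larger changes than those estimated for the 10 genes. That test does not cover changes of their size. Levels entered correlations and permutation tests as log2(CPM + 0.5). NOISeq and ARSyN, used in the study to correct for sorting, were not run; the first residual component as a covariate stood in for ARSyN. The alternatives were upper quartile scaling, DESeq2, other count filters, that covariate, the replicate number as a block and leaving out each library. The 10 genes and all lists were chosen with earlier results of these data known. Genes named were the 10, BRAVO, WOX5, up to 3 per list by mean level, any list gene past a threshold, and the 5 most alike. Names come from a TAIR10.1 table holding 37051 of the 37336 identifiers. Promoter windows were read from the TAIR10.1 genome with its RefSeq annotation; proteins were not analysed here. The software was Python 3.11.15 (numpy 2.4.6, pandas 2.3.3, matplotlib 3.10.9, scipy 1.17.1) and R 4.3.3 (DESeq2 1.42.0, edgeR 4.0.16, limma 3.58.1).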

Additional observations from a re-analysis of the deposited data

How the results depend on the processing

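No alternative gave any of the 10 genes an unadjusted p under 0.05 or an adjusted p under 0.463; the lowest unadjusted p was 0.0698, with the first residual component as covariate. Over all genes tested, the count past the adjusted threshold was 0 in edgeR and 13 with DESeq2, 1 with every gene with a count and 1 with the residual component; at an unadjusted p under 0.05 it was 125, 195, 325 and 2053. With the replicate block it was 0 and 52, and the block changed no call of the 10. Same-numbered libraries did not deviate together (correlations of -0.704, -0.086 and -0.417 for replicates 1, 2 and 3). As transcripts of other root cells also differed between libraries, this does not settle whether the numbers pair them. Leaving out each library gave 75 to 873 genes at an unadjusted p under 0.05 and none past the adjusted threshold.

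The median log2 fold change of the 10 genes was -0.44 with upper quartile scaling, -0.59 with DESeq2, -0.68 with the replicate block, -0.72 with the residual component and -0.56 over the 7 genes whose count reached 10 in each of the 6 libraries. With each library left out it ran from -1.03 to 0.09, and the number of genes below 0 from 4 to 9. Estimates changed sign without WT replicate 3 for CYCB1;2 (range over the left-out libraries -1.42 to 0.15), CYCB1;4 (-0.94 to 0.12), CYCB2;2 (-1.03 to 0.32), CDKB1;1 (-0.96 to 0.51) and CDKB2;2 (-1.88 to 0.39), and without bravo replicate 3 for CYCB1;4, CYCB2;2 and CDKB1;1; the cause was not tested. CYCB2;1 ran from 0.046 to 1.401 over the 5 fits that kept it. With 3 libraries a genotype and a median dispersion of 0.547 for these genes, against 0.316 over all, the libraries limit which differences can be shown. Mean levels on CPM without TMM moved by less than the spread between replicates.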
